A study of Mus musculus with 20 samples.

Results

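Clock, Arntl (the mouse symbol of Bmal1), Npas2 and Arntl2 encode the 4 partners of the circadian activator complex, and their RNA was followed through all 20 libraries of a study of mouse embryonic stem cells (ESC) and induced presomitic mesoderm (iPSM). The genes were taken by symbol from the deposited tables, where each has 1 of the 55421 transcripts, so 4 of 55421 are described. The study asked what CLOCK and BMAL1 do to the segmentation clock, the oscillator of the presomitic mesoderm from which somites form. RNA was read from 10 libraries of each cell type, and in each the libraries came from a control line, 2 clones with the transgenes Clock/Bmal1 and 2 clones with the transgenes Clock/Bmal1DN, each untreated and with doxycycline (dox), the drug that switches on tetO transgenes. The labels do not say what the Bmal1DN form is, and these lines are called ClockBmal1DN clones below.

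The ESC lines derive from KY1.1 cells, and dox was given at 500 ng/mL for 6 hours. They comprise a control line with the genotype control, Clock/Bmal1 clones 1 and 7, and ClockBmal1DN clones 5 and 6. The iPSM lines derive from E14TG2a cells, all with a luciferase reporter under the Hes7 promoter, and the treated colonies had 1000 ng/mL dox for 2 hours. They comprise a control line with that reporter, Clock/Bmal1 clones 12 and 20, and ClockBmal1DN clones 7 and 19. The control line gave 1 untreated and 1 treated library per cell type and has no replicate. Cell type, parental line, dose and time differ together between ESC and iPSM and cannot be told apart. Each clone gave 1 library per treatment. Each p-value rests on 1 estimate of the spread between clones per transcript, shared by all groups of the fit that have 2 clones. The fit draws that estimate toward the trend over all transcripts, so it borrows from other transcripts. The p-value does not measure the spread of a single group.

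CLOCK and BMAL1 are transcription factors of the bHLH-PAS class, which pair with each other and bind the E-box motif CACGTG. They switch on the Per and Cry genes, whose proteins inhibit the pair, and the nuclear receptor genes Nr1d1 and Nr1d2, whose proteins repress Arntl through ROR elements. Npas2 is the paralog of Clock and can take its place as the partner of BMAL1, and Arntl2 is the paralog of Arntl. Embryonic stem cells are known to lack the circadian oscillation that appears on differentiation.

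Library totals were 40.32 to 57.3 M counts in ESC and 38.18 to 47.77 M in iPSM (M, mega). The untreated control library of iPSM stood apart: 69.39% of its features had reads, against 50.19 to 53.96% in the other 9. ESC markers summed to 1639.4 to 2321.9 CPM (counts scaled to the library total with TMM factors) in the ESC libraries, with 9 of 9 at 1 CPM or more, and to 245.8 to 459.4 in iPSM. Presomitic mesoderm markers summed to 948.1 to 1749.4 CPM in iPSM, with 11 of 12 at 1 CPM or more, and to 35.0 to 145.5 in ESC. Somite and neural markers were low in both, with sums of at most 41.3 and 20.7 CPM. Fibroblast markers summed to 48.7 to 458.3 CPM in ESC, highest in untreated ClockBmal1DN clone 6, and to 17.3 to 28.9 in iPSM.

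The sequences of the paralogs were compared to see how far reads of one could match the other. The coding sequences of Clock (2565 bases) and Npas2 (2448 bases) were identical at 65.6% of 2332 aligned positions, and those of Arntl (1878 bases) and Arntl2 (1737 bases) at 62.4% of 1702. The reads were 101 bases long. The longest run that the coding sequences share was 16 bases in the first pair and 11 in the second, shown here in capitals with 10 flanking bases. Over the whole transcripts the longest shared run was 18 and 12 bases. Longer stretches that are alike but for mismatches were not searched. The sequences are of the coding strand, from the GENCODE vM21 transcripts, and positions are counted from the start codon.
Clock, coding positions 2259 to 2294: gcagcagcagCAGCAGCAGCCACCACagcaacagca
Npas2, coding positions 2262 to 2297: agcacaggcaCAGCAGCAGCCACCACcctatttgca
Arntl, coding positions 1104 to 1134: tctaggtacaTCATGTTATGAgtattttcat
Arntl2, coding positions 1014 to 1044: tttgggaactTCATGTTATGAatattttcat
The run in Clock and Npas2 is a CAG repeat followed by CCACCAC, and its flanks differ. No run came near the length of a read.

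The Clock gene (ENSMUST00000202651.3) lies on the minus strand of mm10 at chr5:76209868-76304792, a body of 94.9 kb with an mRNA of 9721 bases. Arntl (ENSMUST00000047321.8) lies on the plus strand at chr7:113207465-113314126, a body of 106.7 kb with an mRNA of 2888 bases. Npas2 (ENSMUST00000056815.8) lies on the plus strand at chr1:39194212-39363236, a body of 169.0 kb with an mRNA of 4215 bases. Arntl2 (ENSMUST00000111639.7) lies on the plus strand at chr6:146796065-146833529, a body of 37.5 kb with an mRNA of 2906 bases. The counts cover the whole gene body, and reads of the Clock and Bmal1 transgenes are counted with those of the endogenous Clock and Arntl. The 2 sources cannot be told apart in the tables.

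Clock and Arntl rose with dox in the Clock/Bmal1 clones of ESC, and Npas2 and Arntl2 did not pass the test. Clock was at 39.6 and 59.2 CPM in untreated clones 1 and 7 and at 699.9 and 574.5 CPM after dox. Arntl, the BMAL1 gene, was at 45.4 and 48.2 CPM untreated and at 2203.1 and 4135.5 CPM after dox. Treated and untreated clones did not overlap for either gene, and clone 1 had more Clock but less Arntl than clone 7 after dox. Here and below, such gaps between libraries are descriptions, and the share of all transcripts with such a gap was not counted. The log2 fold changes were 3.69 ± 0.59 (SE) for Clock (12.9-fold, adjusted p = 0.0377) and 6.08 ± 0.50 for Arntl (67.7-fold, adjusted p = 0.00225), with 2 clones per group. Thus 2 of the 4 genes rose and 0 fell, where 0.404% of the 22500 transcripts tested rose and 0.0178% fell. The Clock call did not hold when any 1 of the 4 libraries was left out: the log2 change was then 3.43 to 4.01 and the adjusted p 0.0737 to 0.334. In the control line dox moved Clock from 29.3 to 28.0 CPM and Arntl from 38.9 to 37.7 CPM. RNA was taken from bulk samples, in which fewer cells with a transcript and less of it per cell cannot be told apart.

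**Figure D1:**
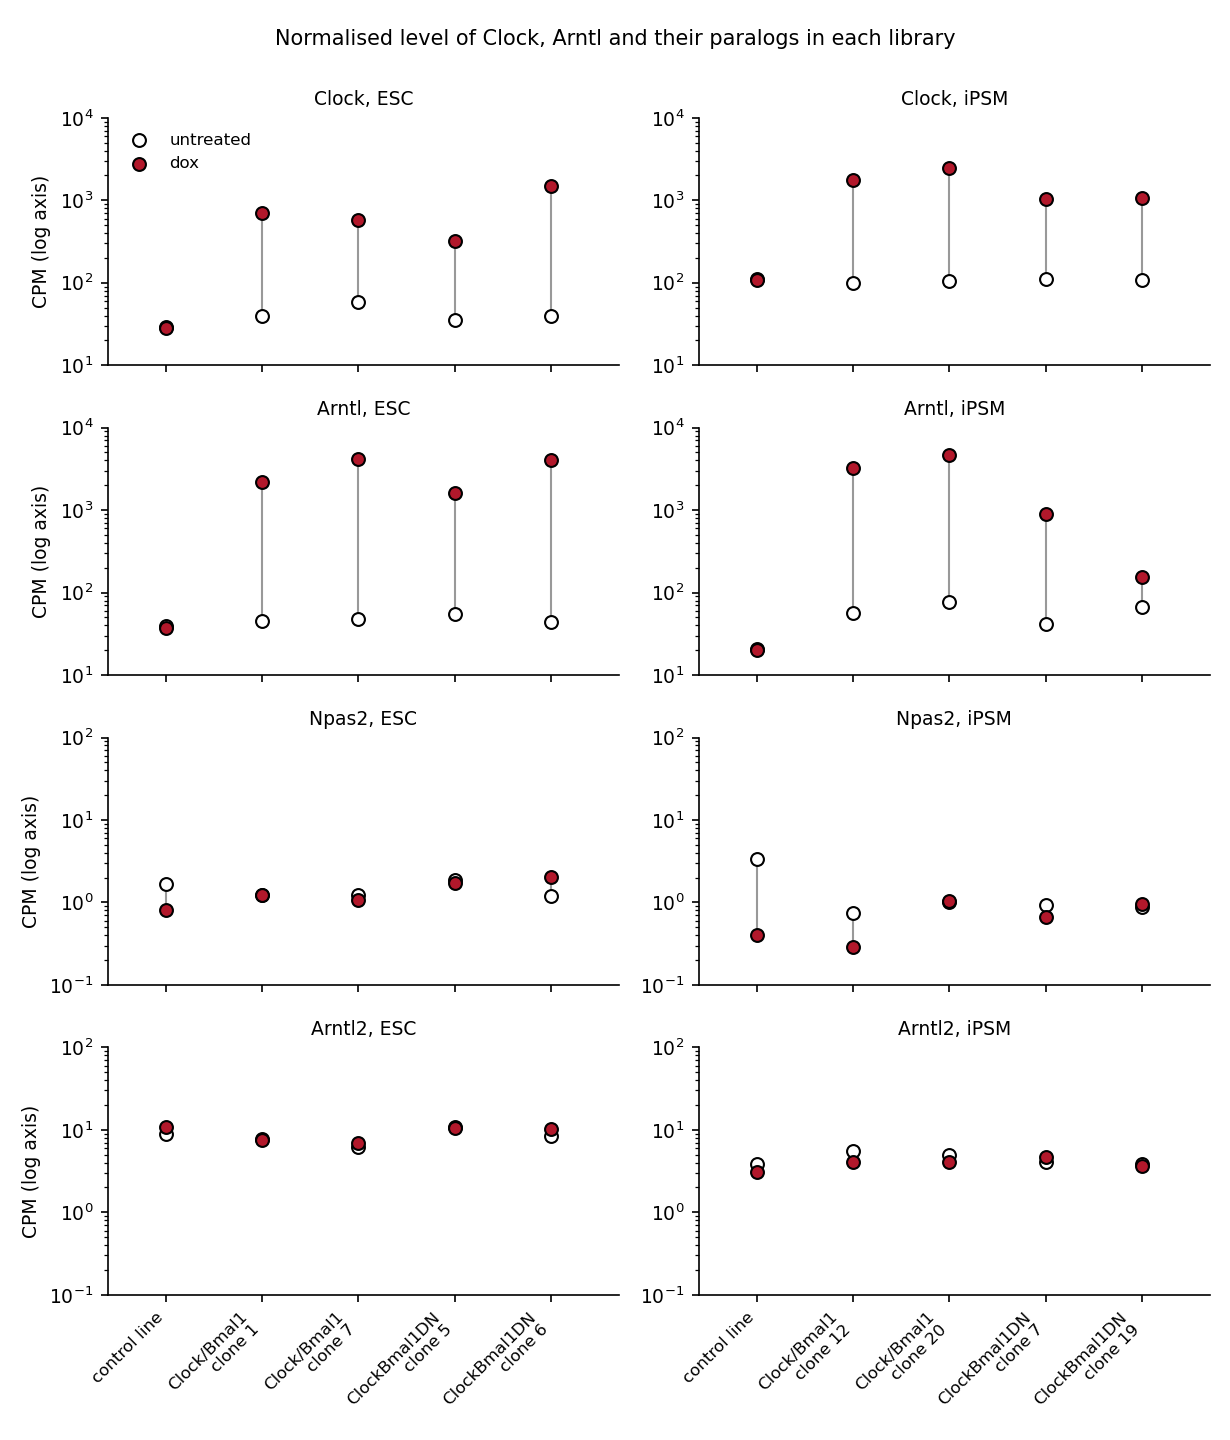
CPM (TMM-scaled, log axis) of Clock, Arntl, Npas2 and Arntl2 in each of the 20 libraries, by line and treatment, 1 point per library. Clock and Arntl of the treated transgenic clones lie above all untreated libraries of the same cell type, down to 153.0 CPM for Arntl in iPSM ClockBmal1DN clone 19, while Npas2 stays at or under 3.33 CPM and Arntl2 at or under 10.9 CPM.

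The ClockBmal1DN clones of ESC also had more Clock and Arntl RNA after dox, with a wide gap between the clones. Clock went from 35.7 to 324.5 CPM in clone 5 and from 39.7 to 1499.2 CPM in clone 6. Arntl went from 54.6 to 1615.2 CPM in clone 5 and from 44.4 to 4067.7 CPM in clone 6. Clone 6 was the higher after dox for both genes, and the treated and untreated clones did not overlap. Arntl rose by a log2 fold change of 5.84 ± 0.49 (57.4-fold, adjusted p = 0.0145, n = 2), the 1 gene of the 4 to pass, against 0.00444% of all transcripts, which is Arntl alone. The log2 difference of Clock was 4.60 ± 0.62 (24.2-fold, 95% interval 3.20 to 5.99) which did not pass (adjusted p = 0.384). DESeq2 did call Clock (adjusted p = 5.86e-20), and so did edgeR without treated clone 5 (5.34, adjusted p = 0.00701). Without untreated clone 5 or untreated clone 6 the Arntl call was lost, with adjusted p = 0.215 and 0.298.

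In iPSM both genes rose in the Clock/Bmal1 clones within the 2 hours. Clock was at 99.4 and 103.6 CPM in untreated clones 12 and 20 and at 1749.8 and 2469.0 CPM after dox. Arntl was at 56.5 and 77.4 CPM untreated and at 3215.5 and 4701.9 CPM after dox. Clone 20 was the higher after dox for both genes, and the 2 treatments did not overlap. Clock rose by a log2 fold change of 4.38 ± 0.18 (20.8-fold, adjusted p = 1.49e-06) and Arntl by 5.89 ± 0.69 (59.1-fold, adjusted p = 0.00157), with 2 clones per group. That is 2 of the 4 genes up and 0 down, where 0.996% of 24805 transcripts rose and 0.0282% fell. In the iPSM control line Clock was at 110.0 CPM untreated and 107.5 with dox, and Arntl at 20.8 and 20.0. After dox in the Clock/Bmal1 clones of iPSM, Clock made up as much as 0.242% and Arntl as much as 0.46% of all counts in a library.

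The ClockBmal1DN clones of iPSM were uniform in Clock and far apart in Arntl. Clock went from 112.0 to 1023.0 CPM in clone 7 and from 107.5 to 1057.8 CPM in clone 19. Arntl went from 41.8 to 887.8 CPM in clone 7 and from 66.0 to 153.0 CPM in clone 19. The Arntl of treated clone 19 was thus closer to its untreated level than to that of treated clone 7. Clock rose by a log2 fold change of 3.24 ± 0.17 (9.48-fold, adjusted p = 2.16e-05, n = 2), the 1 gene of the 4 that passed and also the 1 called transcript in the comparison, 0.00403% of those tested. The log2 difference of Arntl was 3.27 ± 0.61 (9.65-fold, 95% interval 1.92 to 4.62), which did not pass (adjusted p = 1). Without treated clone 19 its log2 change was 4.04 (adjusted p = 0.00153).

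**Figure D2:**
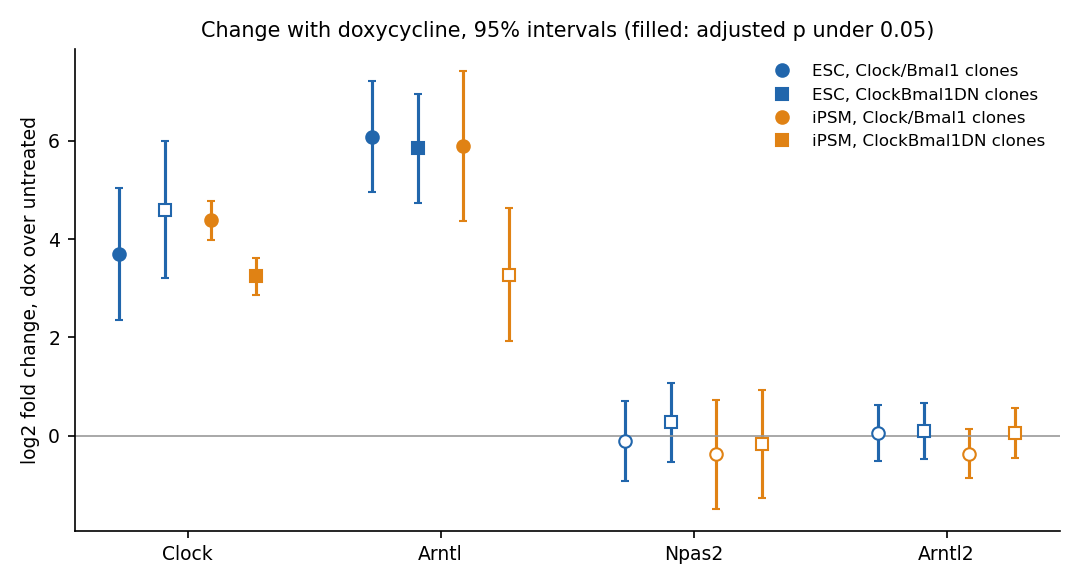
Log2 fold change with dox (edgeR, points) and its 95% interval (bars) for the 4 genes in the Clock/Bmal1 and ClockBmal1DN clones of each cell type, 2 clones per group. Clock and Arntl lie between 3.24 and 6.08 in all comparisons, and the intervals of Npas2 and Arntl2 all span 0.

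The size of the dox effect was compared between the transgenic genotypes directly. In ESC the Clock/Bmal1 effect minus the ClockBmal1DN effect was -0.91 ± 0.76 on the log2 scale for Clock (95% interval -2.61 to 0.80) and 0.24 ± 0.57 for Arntl (-1.04 to 1.51). Neither passed edgeR's test (adjusted p = 0.995 for both), and with 4 genes the count was 0 also at an unadjusted p under 0.05 and with DESeq2, where 0.0578% of all transcripts were called by edgeR. In iPSM the difference was 1.13 ± 0.22 for Clock (0.64 to 1.62, adjusted p = 0.0867) and 2.62 ± 0.81 for Arntl (0.84 to 4.40, adjusted p = 0.642). There, 0 of the 4 genes passed, 2 had an unadjusted p under 0.05, and DESeq2 called Clock (adjusted p = 0.00152), against 0.278% of all transcripts called by edgeR. With each clone as a replicate block, the Clock difference passed as well (1.11, adjusted p = 0.0294). Leaving out untreated or treated clone 12 or untreated clone 20 also brought it past the threshold, within a range of 0.86 to 1.36 over all leave-outs. The Arntl difference passed without treated ClockBmal1DN clone 7 (4.38, adjusted p = 0.0137).

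The balance of the gained RNA differed from clone to clone. The gain, the treated minus the untreated CPM, was 660.3 for Clock and 2157.8 for Arntl in ESC Clock/Bmal1 clone 1, and 515.3 and 4087.3 in clone 7. It was 288.8 and 1560.7 in ClockBmal1DN clone 5, and 1459.5 and 4023.3 in clone 6. In all 4 ESC clones the gain was larger for Arntl than for Clock, by 2.76 to 7.93 times. In iPSM the gain was 1650.4 for Clock and 3159.0 for Arntl in clone 12, and 2365.5 and 4624.5 in clone 20, ratios of 1.91 and 1.96. It was 911.0 and 846.0 in ClockBmal1DN clone 7, a ratio of 0.929, and 950.3 and 87.0 in clone 19, a ratio of 0.0915. These ratios are of CPM, which do not correct for the length of the transcripts, and no test was made on them. Clone 19 thus gained about as much Clock as clone 7, but 87.0 CPM of Arntl against 846.0.

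**Figure D3:**
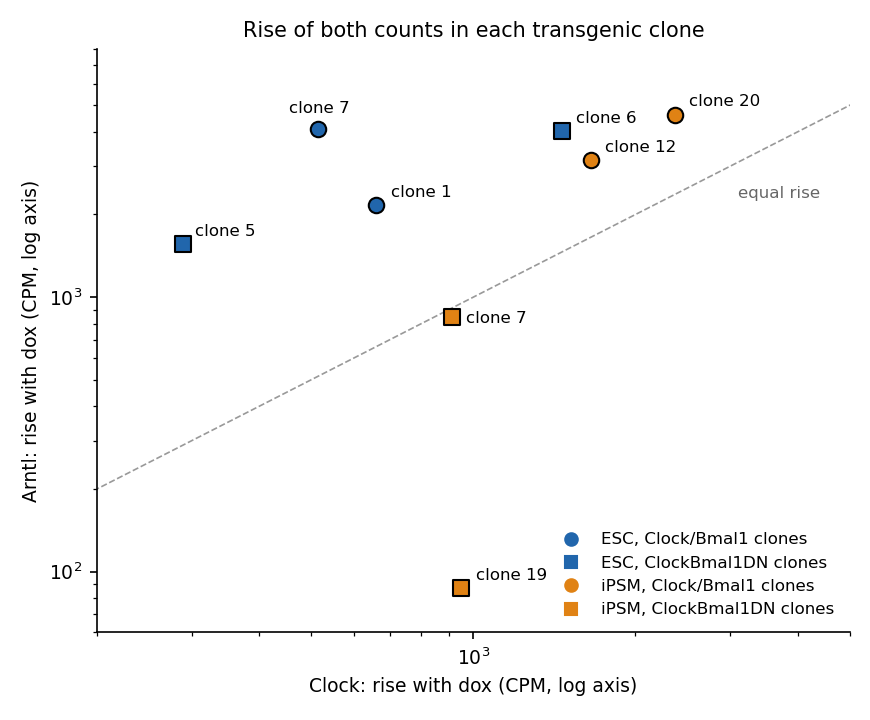
Gain in CPM after dox (treated minus untreated, log axes) of Clock on the horizontal axis and Arntl on the vertical axis, 1 point per transgenic clone, 8 clones. The iPSM ClockBmal1DN clone 19 lies lowest, with a Clock gain of 950.3 and an Arntl gain of 87.0 CPM, and the other 7 clones have an Arntl gain of 846.0 CPM or more.

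The transgenic clones were compared with their control line in the absence of dox, since RNA of a transgene could be present before induction. In ESC, Clock was at 35.7 to 59.2 CPM in the 4 untreated transgenic clones against 29.3 in the control line, and Arntl at 44.4 to 54.6 against 38.9. All 4 clones were above the single control library for both genes. The log2 difference in the Clock/Bmal1 clones was 0.75 for Clock (95% interval -0.78 to 2.28, adjusted p = 0.722) and 0.27 for Arntl (adjusted p = 0.875), and in the ClockBmal1DN clones it was 0.36 and 0.35. By edgeR and by DESeq2, 0 of the 4 genes passed in either comparison, also at an unadjusted p under 0.05, against 0.00444% of all transcripts for Clock/Bmal1 and 0% for ClockBmal1DN (edgeR; 2451 at an unadjusted p under 0.05, and 65 called by DESeq2).

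In iPSM, Arntl was at 41.8 to 77.4 CPM in the 4 untreated transgenic clones, at 20.8 in the untreated control library and at 20.0 in the treated one. All 4 clones were above both control libraries. The log2 difference from the untreated control was 1.69 ± 0.76 in the Clock/Bmal1 clones (3.22-fold, 95% interval 0.02 to 3.35, adjusted p = 0.205) and 1.38 ± 0.75 in the ClockBmal1DN clones (-0.26 to 3.02, adjusted p = 0.435). With the treated control as the reference it was 1.74 and 1.43 (adjusted p = 0.982 and 0.682). Clock lay at 99.4 to 112.0 CPM in the same clones and at 110.0 and 107.5 in the control line, with log2 differences of -0.12 and -0.00. By edgeR and by DESeq2, 0 of the 4 genes passed in either comparison. An unadjusted p under 0.05 was found for 2 and 1 of the 4, and for 5887 and 3963 of the 24805 transcripts. By edgeR 3.93% and 2.55% of all transcripts were called (0.157% and 0.0605% as higher, 3.77% and 2.49% as lower). With the treated control as the reference, 0 transcripts were called in either comparison. Since the control is 1 library that stands apart from the rest, its part in these differences was not tested beyond the change of reference.

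Features inside the Clock and Arntl genes were read for signal that is not part of the mature message. Gm43658, an unclassified transcript of 4176 bases, lies on the strand of Clock at chr5:76297600-76301775, in intron 2 of the 23-exon gene, and shares 0 bases with its exons. It had 18.5 to 57.5 counts in the ESC libraries and 41.0 to 155.0 in iPSM. With dox its log2 change was -0.08 ± 0.56 in the Clock/Bmal1 and -0.45 ± 0.57 in the ClockBmal1DN clones of ESC, and 0.31 ± 0.38 and 0.04 ± 0.37 in those of iPSM. None passed the test. The intronic feature thus had no called change in the comparisons in which the Clock gene body was 9.48 to 24.2-fold higher. The labels do not say whether the transgene holds introns. Ube2n-ps1, a processed pseudogene, lies in intron 18 of Clock and did not pass either.

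**Figure D4:**
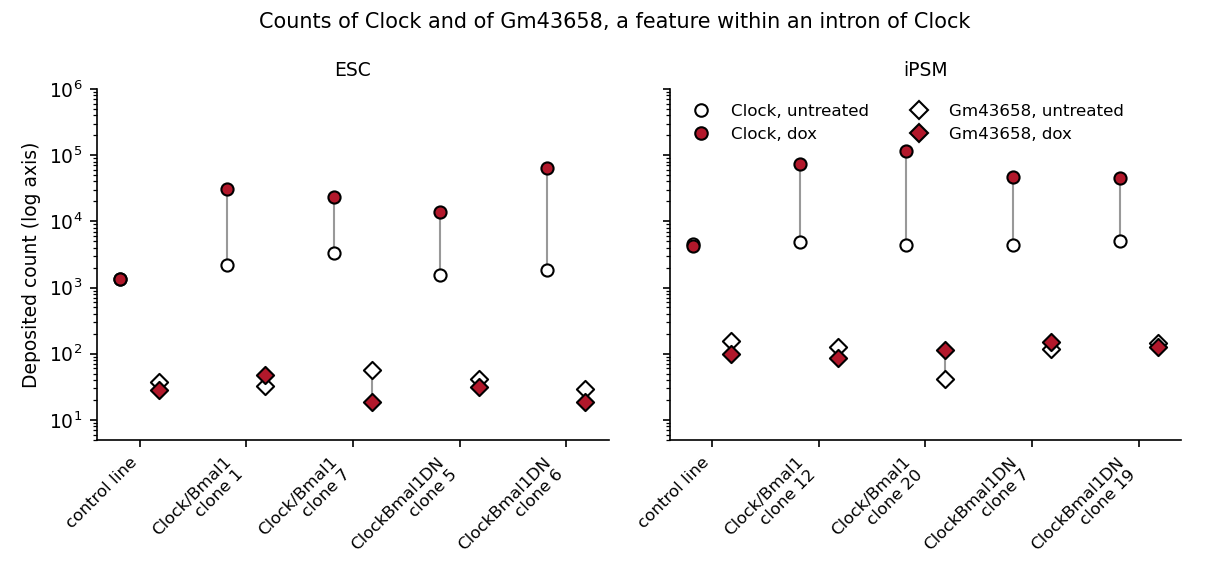
Deposited counts (log axis, not scaled) of Clock and of Gm43658, the feature in its intron 2, in the same 20 libraries, with untreated and treated libraries marked. Clock spans 1326.0 to 115494.0 counts and separates by treatment in the transgenic clones, and Gm43658 spans 18.5 to 155.0 counts and does not.

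Gm45355 lies on the opposite strand of Arntl at chr7:113292944-113295337, and 33 of its 296 exonic bases overlap an Arntl exon. In ESC its counts went from 16.5 to 70.5 and from 20.5 to 46.5 in Clock/Bmal1 clones 1 and 7, and from 23.0 to 52.5 and from 15.0 to 66.0 in ClockBmal1DN clones 5 and 6. In the control line they went from 49.0 to 24.0. All 4 transgenic clones had more after dox, with log2 changes of 2.06 (adjusted p = 0.127) and 1.69 (adjusted p = 0.983). In iPSM the Clock/Bmal1 clones went from 32.5 to 62.5 and from 23.0 to 72.5 and the ClockBmal1DN clones from 4.5 to 15.0 and from 2.0 to 8.5, beside 2.0 and 1.0 in the control line. The log2 changes there were 1.33 (adjusted p = 0.39) and 1.86 (adjusted p = 1). For every 1000 Arntl counts in ESC there were 0.273 to 0.76 Gm45355 counts in the treated clones, 6.56 to 9.83 in the untreated clones and 27.7 and 13.5 in the untreated and treated control line. In iPSM there were 0.33 to 1.32 in the treated clones, 0.638 to 11.7 in the untreated clones and 2.34 and 1.25 in the control line. Whether the counting used the strand is not given in the sources used here, so reads of this gene and of Arntl cannot be told apart.

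Npas2, the paralog that can partner BMAL1 in place of CLOCK, was scarce everywhere. In the untreated and treated ESC libraries it was at 1.67 and 0.804 CPM in the control line, 1.23 and 1.24 in Clock/Bmal1 clone 1, 1.23 and 1.07 in clone 7, 1.89 and 1.71 in ClockBmal1DN clone 5, and 1.20 and 2.04 in clone 6. These values overlap between treatments and lines. The log2 change with dox was -0.09 ± 0.36 in the Clock/Bmal1 clones (95% interval -0.91 to 0.72, adjusted p = 0.963) and 0.28 in the ClockBmal1DN clones (-0.52 to 1.08). In iPSM it was at 3.33 CPM (137.0 counts) in the untreated control library and at 0.289 to 1.05 CPM (12.5 to 49.0 counts) in the other 9. The high value belongs to the library that stands apart. In iPSM the dox change was -0.38 ± 0.50 in the Clock/Bmal1 clones (-1.48 to 0.73, adjusted p = 1) and -0.17 in the ClockBmal1DN clones (-1.27 to 0.93). The intervals leave room for changes of more than 1 on the log2 scale in iPSM and in the ClockBmal1DN clones of ESC.

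Arntl2, the paralog of Arntl, was also without a called change. Its untreated and treated ESC values were 8.93 and 10.9 CPM in the control line, 7.64 and 7.50 in Clock/Bmal1 clone 1, 6.12 and 6.85 in clone 7, 10.9 and 10.6 in ClockBmal1DN clone 5, and 8.49 and 10.2 in clone 6. The Clock/Bmal1 clones had the 4 lowest values with and without dox. The log2 change with dox was 0.06 ± 0.25 (95% interval -0.51 to 0.63, adjusted p = 0.965) in the Clock/Bmal1 clones and 0.10 (-0.46 to 0.67) in the ClockBmal1DN clones. In iPSM, Clock/Bmal1 clones 12 and 20 went from 5.50 to 4.09 and from 4.92 to 4.04 CPM, and ClockBmal1DN clones 7 and 19 from 4.11 to 4.67 and from 3.88 to 3.68. The control line went from 3.89 to 3.11. The log2 changes were -0.36 ± 0.23 (-0.86 to 0.15, adjusted p = 1) and 0.06 (-0.44 to 0.57). The log2 difference in the control line, without a test, was -0.32.

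The dox effect in the Clock/Bmal1 clones was then compared between iPSM and ESC in 1 fit of the 20 libraries. The iPSM effect minus the ESC effect was 0.63 for Clock (95% interval -0.67 to 1.93), -0.25 for Arntl (-1.96 to 1.46), -0.34 for Npas2 (-1.74 to 1.06) and -0.47 for Arntl2 (-1.19 to 0.25). None of the 4 passed edgeR's test (adjusted p = 1 for each), none had an unadjusted p under 0.05, and DESeq2 called none. Over all 26689 transcripts 0% passed (1074 at an unadjusted p under 0.05, 15 by DESeq2). The intervals for Clock and Arntl span more than 2 log2 units.

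The 4 genes were ordered by level per length in the untreated transgenic clones, as RPKM over the gene body. In ESC, Arntl (lowest 0.40, median 0.427, highest 0.509) and Clock (0.374, 0.405 and 0.604) overlapped, Arntl2 followed (0.158, 0.209 and 0.288), and Npas2 was lowest (0.00681, 0.00711 and 0.0111). In iPSM, Clock was highest (1.01, 1.08 and 1.17 RPKM), above Arntl (0.39, 0.569 and 0.67), Arntl2 (0.101, 0.115 and 0.148) and Npas2 (0.00449, 0.00526 and 0.00554), with no overlap between neighbours in that order. In the iPSM control line Clock was at 1.16 untreated and 1.06 RPKM treated, and Arntl at 0.195 and 0.177. The ESC control line had Clock at 0.312 and 0.282 and Arntl at 0.368 and 0.337. The order of Clock and Arntl was thus the reverse in the control lines of the 2 cell types. The gene body length includes introns, so these levels are low for genes of long introns. The order holds for that length only, as the mRNA lengths differ, with 9721 bases for Clock and 2888 for Arntl. An order by mRNA length was not made and could be another.

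Between untreated iPSM and ESC transgenic clones, Clock was higher in iPSM and both paralogs were lower. Clock was 2.14-fold higher in iPSM (log2 1.10 ± 0.31, adjusted p = 0.00637, 4 clones of each cell type), and its ranges of 99.4 to 112.0 and 35.7 to 59.2 CPM did not overlap. Arntl differed by 0.13 ± 0.40 (95% interval -0.73 to 0.98, adjusted p = 0.823) and did not pass. Npas2 was at 0.565 times its ESC level (log2 -0.82 ± 0.33, adjusted p = 0.0396) and Arntl2 at 0.488 times (log2 -1.03 ± 0.17, adjusted p = 8.88e-05). So 3 of the 4 genes passed, 1 higher and 2 lower in iPSM, where 60% of all transcripts passed (31.3% higher and 28.8% lower). That share puts the count near the background. The Npas2 call was lost in 6 of the fits without 1 library and with the control line included in the mean (-0.33, adjusted p = 0.359), and with that mean Arntl was at -0.33 (adjusted p = 0.48).

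Genes with the most similar profile were sought by Pearson's r of log2 CPM over the 10 libraries of a cell type, as a description of those libraries. In ESC, Clock was most like Arntl (0.979), Cdh3 (0.96) and Scyl3 (0.952), and Arntl was most like Clock, Derl3 (0.945) and Scyl3 (0.945), among 13086 genes. In iPSM, Clock was most like Arntl (0.919), Agpat4 (0.888) and Ercc6 (0.882), and Arntl was most like Agpat4 (0.941), Ercc6 (0.939) and Gstm1 (0.928), among 13188 genes. Clock and Arntl were each other's nearest in ESC. Both counts hold transgene reads that dox raised in the same clones, so a high r between them was built into the design. Genes near either one share that treatment pattern, and these r values do not describe the endogenous Clock and Arntl. The nearest of Npas2 were Tcp11l1 (0.869), Paqr9 (0.868) and Chn2 (0.845) in ESC and Tcf3 (0.924), Bmp5 (0.883) and Cdh23 (0.877) in iPSM. Those of Arntl2 were Tek (0.944), Ribc1 (0.943) and Aard (0.941) in ESC and Ppp6r1 (0.946), Syne2 (0.92) and Scap (0.912) in iPSM. No gene was among the 3 nearest of Npas2 or Arntl2 in both cell types. The iPSM list of Npas2 includes the untreated control library that stands apart, where Npas2 was at 3.33 CPM against at most 1.05 elsewhere, and the part of that library in these r values was not tested.

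The other 23 genes of the circadian clock, among them the Per, Cry and Nr1d feedback genes, were next examined in the same comparisons. In the Clock/Bmal1 clones of both cell types the same 11 rose and 0 fell: Per1, Per2, Cry1, Nr1d1, Nr1d2, Dbp, Tef, Hlf, Bhlhe40, Bhlhe41 and Ciart. Over all transcripts 0.404% rose in ESC and 0.996% in iPSM. The median log2 change of the 23 was 1.86 in ESC and 0.98 in iPSM, against -0.01 and -0.02 over all transcripts tested. In ESC the 6 with the lowest adjusted p were Ciart, a repressor of the CLOCK and BMAL1 pair (4.59 ± 0.30, adjusted p = 0.000715), the PAR bZIP factors Tef (2.53 ± 0.21, 0.00225) and Hlf (4.50 ± 0.41, 0.00305), the bHLH repressor Bhlhe41 (6.34 ± 0.56, 0.003), and Nr1d1 (3.44 ± 0.38, 0.0062) and Nr1d2 (1.86 ± 0.23, 0.01), which encode the REV-ERB receptors. In iPSM they were Ciart (4.60 ± 0.24, adjusted p = 7.06e-06), Nr1d1 (4.43 ± 0.32, 0.000107), Bhlhe41 (5.30 ± 0.39, 0.000107), Per1 (2.86 ± 0.25, 0.000257), Hlf (5.30 ± 0.48, 0.000307) and Bhlhe40 (2.84 ± 0.29, 0.000707). With a library left out, the ESC count dropped to 3 (untreated clone 1 or untreated clone 7) or 5 (treated clone 1).

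With ClockBmal1DN, 0 of the 23 clock genes passed edgeR's test in either cell type, where 0.00444% and 0.00403% of all transcripts did. That share is 1 transcript in each cell type, so a count of 0 cannot tell the clock genes from the rest. In ESC 5 of the 23 had an unadjusted p under 0.05, where 900 of 22500 transcripts did, and DESeq2 called 1 as lower. In iPSM the counts were 0 and 0, where 159 of 24805 transcripts had an unadjusted p under 0.05. The medians were 0.10 in ESC and -0.01 in iPSM, against -0.01 and 0 over all transcripts. The lowest unadjusted p-values in ESC belonged to Hlf with a log2 change of -2.23, Dbp with -2.25 and Nr1d1 with -1.68, each at an edgeR adjusted p of 0.983. In the ESC control line, without a test, Hlf went from 1.45 to 0.19 CPM with dox, 0.131 times its untreated level, against 0.175 and 0.272 times in ClockBmal1DN clones 5 and 6. Dbp and Nr1d1 were at 1.19 and 0.851 times in the control line, against 0.293 and 0.099 times (Dbp) and 0.464 and 0.185 times (Nr1d1) in those clones. In iPSM they belonged to Bhlhe40 with -0.54, Cry1 with -0.23 and Dbp with -0.37, each at an adjusted p of 1. The Clock/Bmal1 effect was higher than the ClockBmal1DN effect by the test of the difference for 6 of the 23 in ESC and 10 in iPSM (12 and 11 by DESeq2), and lower for 0, where 0.0578% and 0.278% of all transcripts were called by edgeR. The ESC calls of this difference depended on single libraries. All 6 were lost without untreated Clock/Bmal1 clone 1 or 7, untreated ClockBmal1DN clone 5 or treated ClockBmal1DN clone 6. Most or all of the 6 were lost without treated Clock/Bmal1 clone 1, treated ClockBmal1DN clone 5 or untreated ClockBmal1DN clone 6. Only the fit without treated Clock/Bmal1 clone 7 called enough transcripts to hold all 6.

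**Figure D5:**
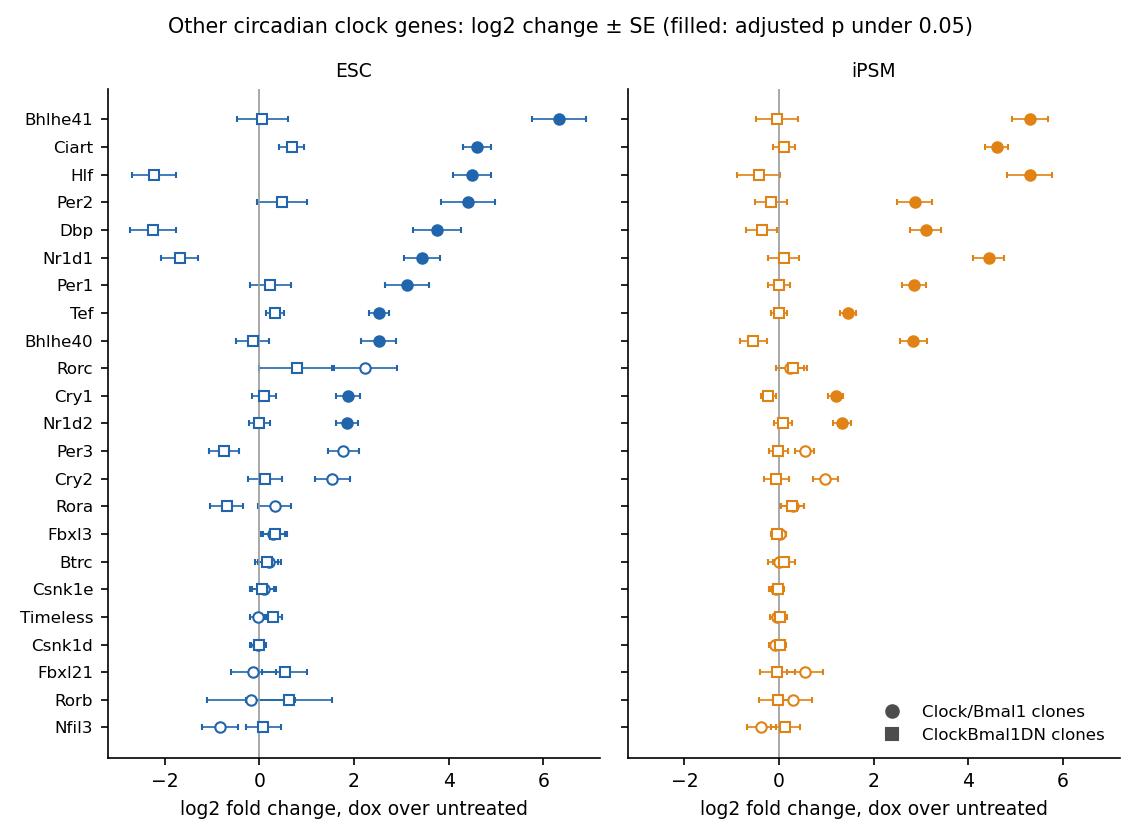
Log2 fold change with dox (edgeR) of the 23 other circadian clock genes in the Clock/Bmal1 and ClockBmal1DN clones of ESC and iPSM, 1 point per gene and comparison, filled where the gene passed the test. The filled points are 11 genes in each Clock/Bmal1 comparison and none in the ClockBmal1DN comparisons.

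The wider bHLH-PAS family and its coactivators, 15 genes such as Arnt, Ahr, Epas1, Npas1, Sim1 and the Ncoa coactivators, had no called change with dox. Of these 14 were tested in ESC, where Npas4 was left out for low counts, and 15 in iPSM. By edgeR and DESeq2 0 passed in each of the 4 dox comparisons, and 1 had an unadjusted p under 0.05 in each Clock/Bmal1 comparison and 0 in each ClockBmal1DN comparison. Over all transcripts 0.422% and 1.02% were called with Clock/Bmal1 in ESC and iPSM and 0.00444% and 0.00403% with ClockBmal1DN, so a count of 0 is near the background. The genes with an unadjusted p under 0.05 were Npas3 in ESC (log2 1.03, edgeR adjusted p = 0.651) and Sim2 in iPSM (3.75 ± 1.02, adjusted p = 0.197). The median log2 change was 0.13 with Clock/Bmal1 and 0.06 with ClockBmal1DN in ESC, and -0.03 and 0 in iPSM, against -0.01, -0.01, -0.02 and 0 over all transcripts. Between untreated iPSM and ESC clones 6 were higher and 4 lower in iPSM, where 31.3% of all transcripts were higher and 28.8% lower, so the count is near the background. Those with the lowest adjusted p among them include the neural factor gene Npas3 (4.21 ± 0.25, adjusted p = 3.69e-09), Arnt2, a dimerisation partner (3.91 ± 0.25, 7.06e-09), and the hypoxia factor gene Epas1 (-3.12 ± 0.34, 1.32e-06).

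The genes within 100 kb of the 4 were examined, since 27 bodies lie there. By edgeR, Nmu, which encodes the peptide neuromedin U, was the only one to pass with dox among 17 tested in ESC and 16 in iPSM, where 0.422% and 1.02% of all transcripts were called with Clock/Bmal1. It lies on the strand of Clock at chr5:76333495-76363788 (ENSMUST00000031146.2), 28.7 kb from the Clock body. In iPSM it went from 6.0 to 416.0 counts in Clock/Bmal1 clone 12 and from 13.0 to 654.0 in clone 20. It had 3.0 to 17.0 counts in the 8 iPSM libraries other than the treated Clock/Bmal1 clones. The iPSM rise was 5.81 ± 0.42 on the log2 scale (55.9-fold, edgeR adjusted p = 0.000107), beside 6.18 ± 0.72 in ESC (72.4-fold, adjusted p = 0.00802), where Nmu had 398.0 and 176.0 counts in the treated clones and 0 to 7.0 in all others. The ESC call needed 3 of the 4 libraries: its adjusted p was 0.118, 0.0592 and 0.0782 with the untreated library of clone 1, its treated library or the untreated library of clone 7 removed.

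In the ClockBmal1DN clones, in which Clock was at 324.5 CPM or more after dox, Nmu was at 2.5 and 2.0 counts, untreated and treated, in ESC clone 5 and at 0 and 5.0 in clone 6. In iPSM it was at 3.0 and 4.0 in clone 7 and at 6.0 and 4.0 in clone 19. None of these exceeds 6.0 counts. The Clock/Bmal1 effect on Nmu was higher than the ClockBmal1DN effect by 5.98 ± 0.84 in iPSM (adjusted p = 0.0157) and by 4.43 ± 1.82 in ESC, where the difference did not pass (adjusted p = 0.995). The other neighbours, 16 tested in ESC and 15 in iPSM, had log2 changes of -0.76 to 2.06 in the ESC and -0.71 to 1.33 in the iPSM Clock/Bmal1 clones. In both cases the highest is Gm45355, the antisense neighbour of Arntl, and 0 passed edgeR's test, with 2 and 1 at an unadjusted p under 0.05 and 1 and 0 called by DESeq2.

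The promoters of Clock and Nmu, 2 neighbours of which the second rose with the Clock/Bmal1 transgenes, are shown with the motif of the CLOCK and BMAL1 pair and that of the ROR and REV-ERB receptors in capitals. Each is the stretch of 150 bases before the start of the gene in the tables, from RefSeq's GRCm38.p6 sequence, read on the minus strand of the gene.
Clock, chr5:76304793-76304942: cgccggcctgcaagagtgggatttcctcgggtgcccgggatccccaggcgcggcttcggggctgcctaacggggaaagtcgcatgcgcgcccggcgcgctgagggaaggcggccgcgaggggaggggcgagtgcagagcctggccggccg
Nmu, chr5:76363789-76363938: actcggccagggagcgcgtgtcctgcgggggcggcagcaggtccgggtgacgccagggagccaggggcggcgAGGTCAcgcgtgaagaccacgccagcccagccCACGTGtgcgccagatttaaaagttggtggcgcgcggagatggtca
The Nmu stretch holds CACGTG and AGGTCA, and the Clock stretch holds neither. Searched on both strands in RefSeq's windows of 250 bases before to 50 after a start, CACGTG is in 7.15% of 32851 windows, CACGTT in 4.68%, AGGTCA in 16.3% and AGGTTA in 8.49%. CACGTG is in the windows of 0 of the 4 genes, in those of 5 of the 9 risen clock genes that have a window, and in those of 0 of the 8 clock genes with a window that did not rise in either cell type. The E-box-like CACGTT does not separate them: it is in windows of Cry1 and Nr1d1, which rose, and of Cry2 and Rorb, which were not called. A match of letters does not show binding, and the window of Arntl2 starts 9465 bases from the start in the tables.

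Arntl is repressed by the REV-ERB proteins, whose genes Nr1d1 and Nr1d2 both rose in the Clock/Bmal1 clones, through ROR elements at its start. The following 21-base stretches downstream of the Arntl start hold AGGTTA and AGGTCA, in capitals, both read on the plus strand from RefSeq's GRCm38.p6 sequence.
Arntl, chr7:113207497-113207517: tcggaaagtAGGTTAgtggtg
Arntl, chr7:113207533-113207553: gcagaaagtAGGTCAgggacg
Both have aaagt before the motif. A lower endogenous Arntl level after dox could not be read from the tables, because the Arntl count rose to 2203.1 CPM or more with the transgene reads in the treated Clock/Bmal1 clones.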

How the data were processed

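Stranded total RNA of 20 libraries was read as paired ends of 101 bases. Reads were processed with bcl2fastq, STAR 2.7.2a and HOMER on mm10, per the submitters' processing notes. The deposited expected counts per gene body come in steps of 0.5, and 18.1% end in 0.5; they are not normalised, per the file headers (normFactor 1.00), and were rounded to whole numbers here. The authors' RPKM columns scale the same counts by gene-body length, introns included, and by the library total; 100.0% were recomputed within 1% plus 0.001.

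The 10 libraries of a cell type were fitted as 6 groups with edgeR 4.0.16 in R 4.3.3 (TMM, filterByExpr, quasi-likelihood test, two-sided, Benjamini-Hochberg over all transcripts tested, threshold 0.05), which leaves 4 residual degrees of freedom. Comparisons between cell types used all 20 libraries as 12 groups. All adjusted p-values are edgeR's unless DESeq2 1.42.0 is named. The single control library was assumed to vary like the clones. CPM are TMM-scaled; figures used Python 3.11.15. The scripts were tested on simulated data for the Clock/Bmal1 dox effect, with changes set in transcripts at 1 CPM or more. In ESC 8% of log2 changes of 1 and 83% of changes of 2, in either direction, were called. In iPSM these shares were 57% and 97%. False calls numbered 8 and 20. A true change of 1 on the log2 scale could thus go uncalled.

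Alternatives were RLE factors, no filter, DESeq2, each library left out, a replicate block and another control reference; leaving out the untreated iPSM control was added after seeing the data. Numbers pair libraries because a number is a clone, the same line: the same-clone correlation of deviations was 0.422 (Clock/Bmal1) and -0.0125 (ClockBmal1DN) in ESC and 0.189 and 0.0872 in iPSM.

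The 4 genes and the lists were chosen with earlier results of these data known. Always named were the 4 genes; of each list up to 6 members that passed, by adjusted p, or else up to 3 by unadjusted p; the tested neighbours within 100 kb; and the 3 genes with the highest r, among those with a mean of at least 1 CPM. The other features inside Clock and Arntl are neighbours by that rule.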

Additional observations from a re-analysis of the deposited data

How the results depend on the processing

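Of 486 alternative values over 60 results, 417 kept their direction and their side of the threshold, and 28 results did so under every alternative; values are log2 changes or differences, and where a call changed the cause was not tested. RLE factors changed no call and no direction of the 4 genes. With no filter on low counts these passed: Clock with ClockBmal1DN in ESC (4.61), Arntl with ClockBmal1DN in iPSM (3.25), the iPSM differences of Clock (1.14) and Arntl (2.63), and the untreated iPSM clones against their control for Arntl (1.71 in Clock/Bmal1, 1.40 in ClockBmal1DN) and Npas2 (-1.90 and -1.86), while Clock in the latter turned to 0.0201. DESeq2 called Clock with ClockBmal1DN in ESC (4.60) and the iPSM difference of Clock (1.13). With each clone as a replicate block the iPSM difference of Clock passed (1.11, adjusted p = 0.0294), and the block changed no other call of the 4 genes.

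With the treated control as the reference, signs turned for Npas2 in untreated ESC clones (0.61 in Clock/Bmal1, 0.94 in ClockBmal1DN), Arntl2 in ESC ClockBmal1DN (-0.18), Npas2 in iPSM (1.12 and 1.16) and Clock in iPSM ClockBmal1DN (0.0292). With the control line in the mean, the iPSM against ESC level of Arntl turned to -0.33 and that of Npas2 (-0.33) no longer passed.

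Leaving out 1 library at a time gave these ranges. With Clock/Bmal1 in ESC, Clock was at 3.43 to 4.01, Npas2 at -0.20 to 0.0555, Arntl2 at -0.0904 to 0.23, and 3 to 10 clock genes rose. With ClockBmal1DN in ESC, Clock was at 3.11 to 5.34, Arntl at 5.03 to 6.39, Npas2 at -0.0132 to 0.645 and Arntl2 at -0.0636 to 0.29. The ESC difference was -1.61 to 0.61 for Clock, -0.26 to 1.07 for Arntl and -0.23 to 0.13 for Arntl2. Npas2 with Clock/Bmal1 in iPSM was at -1.59 to 0.25. With ClockBmal1DN in iPSM, Arntl was at 1.5045 to 4.04, Npas2 at -0.45 to 0.0754 and Arntl2 at -0.12 to 0.22. The iPSM difference was 0.86 to 1.36 for Clock, 1.85 to 4.38 for Arntl and -1.42 to 0.42 for Npas2. The iPSM effect minus the ESC effect was -0.54 to 0.27 for Arntl and -1.54 to 0.29 for Npas2, and the level -0.0594 to 0.27 for Arntl and -0.98 to -0.64 for Npas2. In untreated ClockBmal1DN clones against the control, Npas2 was at -0.48 to 0.18 and Arntl2 at -0.0705 to 0.28 in ESC, and Clock at -0.0329 to 0.0304 and Arntl2 at -0.0054 to 0.0834 in iPSM. Without the untreated iPSM control, a choice made after seeing the data, no call of the 4 genes changed.

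The number of transcripts called depended on the setting. For Clock/Bmal1 in ESC it was 95, with 537 without the filter, 359 by DESeq2, 158 with the block and 7 to 90 with a library left out, and in iPSM it was 254, with 597, 376 (DESeq2), 375 and 83 to 678. For ClockBmal1DN it was 1 in each cell type, with 463 and 8 without the filter and 7 and 1 by DESeq2. For the differences it was 13 in ESC and 69 in iPSM, with 410 and 280 without the filter, 130 and 154 by DESeq2, 25 and 132 with the block, and 0 to 8 and 16 to 167 with a library left out. For the iPSM effect minus the ESC effect it was 0, with 87 without the filter, 15 by DESeq2 and 2 with the block. For the untreated clones against the control it was 1 and 0 in ESC and 974 and 632 in iPSM, with 650, 946, 3023 and 1989 without the filter, 27, 65, 721 and 377 by DESeq2, and 2, 0, 0 and 0 against the treated control. RLE factors gave 2 in the first of these, and in iPSM leaving out Clock/Bmal1 clone 12 gave 5289 and leaving out either ClockBmal1DN clone gave 1. The limits are 2 clones per group, 1 control library, and 12.5 to 137.0 counts for Npas2.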
